A study of Rattus norvegicus with 54 samples.

Results

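Arc, Nr4a1, Nr4a2, Nr4a3, Npas4, Homer1 and Ptgs2 are genes whose transcripts rise and fall with the electrical activity of neurons, and they were followed here in rat cortical cultures. They were taken by Ensembl identifier from a list of 8, and an identifier was kept only if the count table held it on the listed chromosome. The identifiers are ENSRNOG00000043465 (Arc), ENSRNOG00000007607 (Nr4a1), ENSRNOG00000005600 (Nr4a2), ENSRNOG00000005964 (Nr4a3), ENSRNOG00000020009 (Npas4), ENSRNOG00000047014 (Homer1) and ENSRNOG00000002525 (Ptgs2). This kept 7 of the 30560 genes in the table. The remaining gene of the list, Dusp1, was not analysed here. All 7 passed the filter on low counts, which left 17172 genes for testing.

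Calcium that enters a firing neuron starts kinase pathways that act on factors already present in the nucleus, above all CREB, and these switch on a first wave of genes within minutes, without new protein. Some members of that wave are transcription factors themselves. Npas4 answers to calcium entry and adjusts inhibitory synapses, and Nr4a1 (Nur77), Nr4a2 (Nurr1) and Nr4a3 (Nor1) are orphan nuclear receptors that bind DNA without a known hormone. Others act outside the nucleus: Arc at the synapse removes AMPA-type glutamate receptors, Homer1 links glutamate receptors to intracellular calcium stores, and Ptgs2 (cyclooxygenase 2) makes prostaglandins.

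The libraries came from cortical neurons of rat embryos at day 18 of gestation. Cultures were untransfected, or carried an adeno-associated virus with GFP driven by SYN, a neuronal promoter (the GFP group), or a virus with the same promoter for Mbd3 overexpression together with GFP (the rMBD3 group). Each was kept in medium with magnesium or in magnesium-free medium, which the submitters call epileptiform, and was collected at 2, 6 or 24 h. These 18 groups had 3 libraries each, numbered 1 to 3 by cell culture, so that n = 3 per group, 18 per time point, 18 per construct and 27 per medium. Magnesium blocks the channel of NMDA-type glutamate receptors, and its removal is a common way to raise firing in cultured neurons. All groups share the same embryonic cortex source. No library from before the medium change was analysed here, so 2 h is the earliest level. P-values measure the spread between libraries of the same group, with all libraries taken as independent in the fit. Deviations of same-numbered libraries from their group means correlated, by 0.277 on average at the same time point. The p-values therefore do not measure how far a change differed between the numbered cultures.

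Total counts ran from 14448927 to 39691105 per library, so that 3 counts, taken as the lowest measurable level, correspond to 0.0756 to 0.208 CPM, the usual count scaled to a fixed library total; this floor covers counting error only. Mbd3 had 2290 to 18300 CPM in the 18 rMBD3 libraries and 113 to 269 CPM in the 18 GFP libraries, as the labels say. The summed level of 7 neuron marker genes (Map2, Rbfox3, Snap25, Syn1, Gad1, Slc17a7 and Slc17a6) was 2000 to 3150 CPM at 2 h, 970 to 2450 at 6 h and 165 to 1600 at 24 h. That of 4 astrocyte markers (Gfap, Aqp4, Slc1a3 and Slc1a2) was 264 to 5450, 767 to 7130 and 380 to 2970 CPM. The 4 microglia markers summed to at most 11.6 CPM in any library, with medians of 0.157, 0.337 and 0.106 CPM. The 3 fibroblast markers summed to 0.618 to 28.5 CPM, and the 3 oligodendrocyte-lineage markers to 1.84 to 17.9 CPM. The cultures therefore held astrocyte transcripts beside those of neurons, and the neuron markers were lower at each later time. These sums are shares of all counts in a library, so that untested markers are included. In RNA from whole cultures, fewer neurons and less RNA per neuron cannot be told apart. The library of the rMBD3 group with magnesium at 24 h, culture 1, lay above the others of its group in each gene described here. It was the highest at 24 h for Arc, Ptgs2, Npas4 and Nr4a2, narrowly so for Nr4a2. Nr4a1, Nr4a3 and Homer1 were highest in GFP libraries. Results that rest on this library are given with and without it.

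The promoters below are shown for 3 genes that were lower at 24 h than at 2 h (Nr4a1, Nr4a2 and Npas4) and for one that was higher (Ptgs2). They are the 250 bases before the start that RefSeq gives on the rat assembly GRCr8, 5′ to 3′ on the gene's strand. Of the 7 genes, 5 had an entry. Capitals mark the core of the CREB recognition element, CGTCA or its reverse complement TGACG, searched on both strands. The positions are chr7:134259888-134260137 (plus strand) for Nr4a1, chr3:62104888-62105137 (minus strand) for Nr4a2, chr1:211716103-211716352 (minus strand) for Npas4 and chr13:64713813-64714062 (plus strand) for Ptgs2.
Nr4a1: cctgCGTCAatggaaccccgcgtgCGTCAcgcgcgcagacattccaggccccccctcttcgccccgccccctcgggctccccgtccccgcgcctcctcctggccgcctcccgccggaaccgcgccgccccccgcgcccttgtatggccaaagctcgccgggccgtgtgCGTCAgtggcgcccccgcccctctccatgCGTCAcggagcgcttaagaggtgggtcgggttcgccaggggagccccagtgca
Nr4a2: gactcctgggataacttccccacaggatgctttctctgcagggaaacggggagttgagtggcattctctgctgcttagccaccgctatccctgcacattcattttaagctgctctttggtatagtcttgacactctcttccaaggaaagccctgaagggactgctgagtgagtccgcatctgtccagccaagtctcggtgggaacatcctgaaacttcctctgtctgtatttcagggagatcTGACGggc
Npas4: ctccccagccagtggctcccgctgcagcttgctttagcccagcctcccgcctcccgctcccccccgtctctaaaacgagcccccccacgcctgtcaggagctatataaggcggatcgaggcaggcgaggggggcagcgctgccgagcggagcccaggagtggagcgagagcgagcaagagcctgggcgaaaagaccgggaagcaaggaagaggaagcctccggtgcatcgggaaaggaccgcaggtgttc
Ptgs2: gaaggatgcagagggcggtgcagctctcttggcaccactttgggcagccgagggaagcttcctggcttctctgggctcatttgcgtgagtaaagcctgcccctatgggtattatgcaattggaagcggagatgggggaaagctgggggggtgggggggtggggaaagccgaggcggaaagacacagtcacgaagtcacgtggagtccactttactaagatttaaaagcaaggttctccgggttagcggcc

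The Nr4a1 promoter held 4 such cores, a number reached by 0.173% of the 33469 RefSeq promoters of this length, of which 18.2% held at least 1. Nr4a2 held 1, next to the start, and Npas4, Ptgs2 and Homer1 held 0 in this window. The full element TGACGTCA, present in 1.59% of promoters, was in 0 of the 5. Ptgs2 held the E-box CACGTG (5.59% of promoters), and Homer1 a TATAAA motif (12.9%, both strands). CpG dinucleotides numbered 32 in Nr4a1, 19 in Npas4, 12 in Homer1, 10 in Ptgs2 and 5 in Nr4a2, against a median of 5 and quartiles of 2 and 15 over all promoters. A match describes the letters only, and RefSeq's Nr4a2 and Npas4 genes span 2.14 and 3.65 times the length of the models used for counting.

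**Figure D1:**
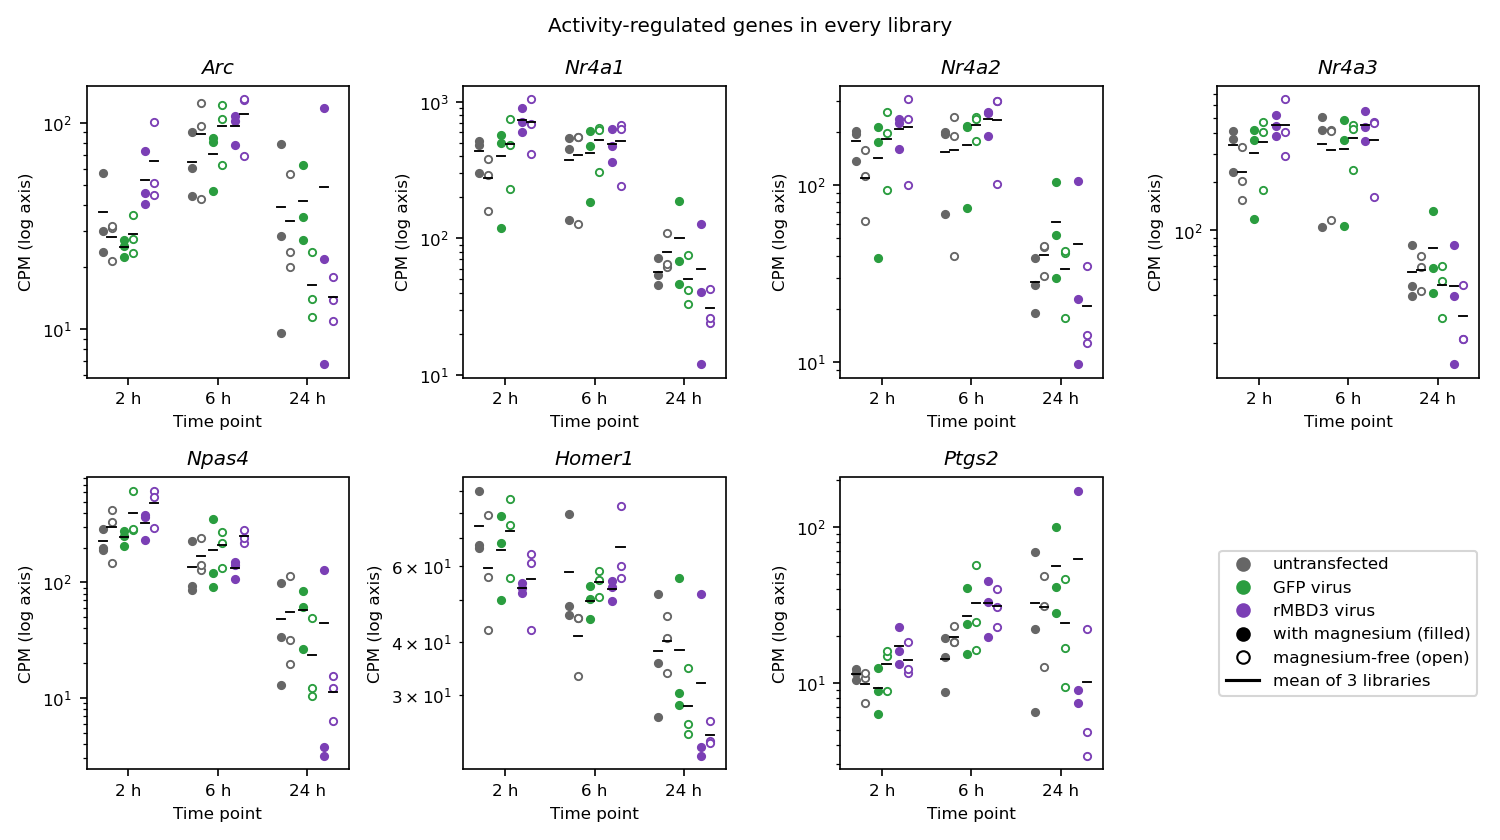
Level of each gene in all 54 libraries, in CPM on a log axis, by time point; colours are the constructs, filled points had magnesium, open points were magnesium-free, and bars are means of 3 libraries. Npas4 had 148 to 621 CPM at 2 h and 3.15 to 128 CPM at 24 h, while Ptgs2 had 6.28 to 22.9 CPM at 2 h and 3.4 to 171 CPM at 24 h.

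Among the comparisons averaged over conditions, differences of these genes passed the test between time points and in 0 of 7 between constructs or media. The question of this comparison is how the genes stood at 6 and 24 h relative to 2 h, averaged with equal weight over the 6 combinations of construct and medium. From 2 to 6 h Arc and Ptgs2 rose and Npas4 fell, and from 6 to 24 h 6 of the 7 fell. The falls from 6 to 24 h were largest for Nr4a1, Nr4a3, Nr4a2 and Npas4 (log2 fold changes -2.95, -2.85, -2.39 and -2.33). Within cultures 1 and 3 the mean fall of Npas4 (-1.80 and -3.39) was the largest of the 7. By 24 h Ptgs2 was the only one of the 7 above its 2 h level, a rise that rested on culture 1.

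Per kilobase of exon, which allows levels to be compared between genes, the median library at 2 h had 186 CPM of Nr4a1, 117 of Npas4, 68.6 of Nr4a3, 53.4 of Nr4a2, 12.2 of Homer1, 9.85 of Arc and 2.72 of Ptgs2. At 24 h the values were 18.7 for Nr4a1, 9.53 for Nr4a2, 9.36 for Npas4, 8.38 for Nr4a3, 7.15 for Arc, 5.73 for Homer1 and 5.04 for Ptgs2. The medians thus lay within a far narrower range at the last time point. The order of neighbours there was within the spread of libraries.

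Npas4 (chromosome 1, 202281958 to 202286724, minus strand, mRatBN7.2) had its highest level at 2 h. Its CPM in the lowest, median and highest of 18 libraries was 148, 288 and 621 at 2 h, then 85.5, 146 and 357 at 6 h, and 3.15, 23 and 128 at 24 h. Every one of the 18 libraries at 24 h lay below every library at 2 h, which held for 8.14% of all genes tested. Between 2 and 6 h it fell by 0.86 on the log2 scale (SE 0.33; edgeR adjusted p = 0.0279), with lower values in 16 of 18 same-numbered pairs; the call was lost without culture 2 (-0.79, adjusted p = 0.139) and without culture 3 (-0.63, adjusted p = 0.299). Between 2 and 24 h the log2 fold change was -3.19 ± 0.35 (edgeR adjusted p = 2.34e-10), lower in 18 of 18 pairs, as were 14.6% of all genes tested. Within cultures 1, 2 and 3 the mean log2 difference was -2.17, -4.26 and -4.66.

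None of the 3 Nr4a genes was called from 2 to 6 h, and all 3 fell afterwards. Nr4a1 (chromosome 7, 132374840 to 132389297, plus strand) had 119, 496 and 1050 CPM in the lowest, median and highest library at 2 h, 127, 509 and 678 at 6 h, and 11.9, 49.9 and 189 at 24 h. Nr4a3 (chromosome 5, 62361822 to 62402733, plus strand) had 117, 375 and 651 CPM at 2 h, 105, 419 and 552 at 6 h, and 14.8, 45.8 and 133 at 24 h. Nr4a2 (chromosome 3, 41689851 to 41697877, minus strand), which is also needed by dopamine neurons, had 38.5, 184 and 305 CPM at 2 h, 39.9, 207 and 300 at 6 h, and 9.73, 32.8 and 106 at 24 h. The lowest libraries at 2 and 6 h were of culture 1 in each of the 3 genes.

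From 6 to 24 h the log2 fold change was -2.95 ± 0.28 for Nr4a1 (adjusted p = 3.22e-11, lower in 18 of 18 pairs), -2.85 ± 0.26 for Nr4a3 (adjusted p = 9.34e-12, 18 of 18) and -2.39 ± 0.28 for Nr4a2 (adjusted p = 3.37e-09, 17 of 18). A fall in every pair held for 5.03% of all genes tested. All 3 changes passed in a fit that takes the libraries as independent, so the standard errors do not measure the spread between cultures. Within cultures 1, 2 and 3 the mean log2 difference was -1.711, -4.042 and -3.154 for Nr4a1. For Nr4a3 it was -1.485, -3.836 and -3.112. For Nr4a2 the mean log2 difference from 6 to 24 h was -0.93, -3.6 and -2.82 in cultures 1, 2 and 3; the difference between cultures was not tested. Differences between 2 and 6 h were -0.09 ± 0.26 for Nr4a1, 0.06 ± 0.24 for Nr4a3 and 0.18 ± 0.26 for Nr4a2 (SE; adjusted p = 0.814, 0.875 and 0.589), with 95% intervals from -0.61 to 0.71 over the 3 genes.

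Arc (chromosome 7, 106555785 to 106559378, minus strand) reached its highest median at 6 h. Its lowest, median and highest CPM was 21.4, 31.3 and 101 at 2 h, 42.7, 87.3 and 130 at 6 h, and 6.76, 22.7 and 118 at 24 h. The rise to 6 h was 1.22 ± 0.25 on the log2 scale (adjusted p = 8.02e-05) and appeared in 18 of 18 pairs, a count reached upward by 6.49% of all genes tested. From 6 to 24 h it fell by 1.56 on the log2 scale (SE 0.25, adjusted p = 2.03e-06), in 15 of 18 pairs; the other 3 pairs were all of culture 1. Between 2 and 24 h the difference was -0.34 ± 0.25 (adjusted p = 0.211). With the culture number as a block it was -0.49 (adjusted p = 0.0304), without culture 1 it was -0.85 (adjusted p = 0.000809), and without the single library named above -0.57 (adjusted p = 0.0161).

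Homer1 (chromosome 2, 24543093 to 24644785, plus strand) had the smallest standard error of the 7 in each time comparison. Activity induces its short form, Homer1a, which gene-level counts do not separate from the long forms. Its lowest, median and highest CPM was 42.5, 62.5 and 90.2 at 2 h, 33.2, 52.3 and 83.1 at 6 h, and 21.6, 29.3 and 56.3 at 24 h. The log2 fold change from 2 to 24 h was -0.94 ± 0.11 (adjusted p = 1.8e-09), lower in 17 of 18 pairs. From 2 to 6 h it was -0.24 ± 0.11 (adjusted p = 0.0754), and -0.25 with an adjusted p = 0.0442 when culture number was a block.

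Ptgs2 (chromosome 13, 62163932 to 62172188, plus strand) rose early and then split by culture. Its lowest, median and highest CPM was 6.28, 11.9 and 22.9 at 2 h, 8.68, 23 and 57.3 at 6 h, and 3.4, 22.1 and 171 at 24 h. From 2 to 6 h the log2 fold change was 1.04 ± 0.32 (adjusted p = 0.00639), higher in 17 of 18 pairs, and 1.06 without culture 3 (adjusted p = 0.081). From 2 to 24 h it was 1.33 ± 0.32 (adjusted p = 0.000329), higher in 13 of 18 pairs. Within cultures 1, 2 and 3 the mean log2 difference was 2.36, -0.32 and 0.41, without culture 1 the difference was 0.16 (adjusted p = 0.496), and without the single library named above 0.91 (adjusted p = 0.0022). From 6 to 24 h it was 0.3 ± 0.31 (adjusted p = 0.445), and -0.67 without culture 1 (adjusted p = 0.00732), where it counted as a fall, and -0.19 without the single library (adjusted p = 0.573).

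**Figure D2:**
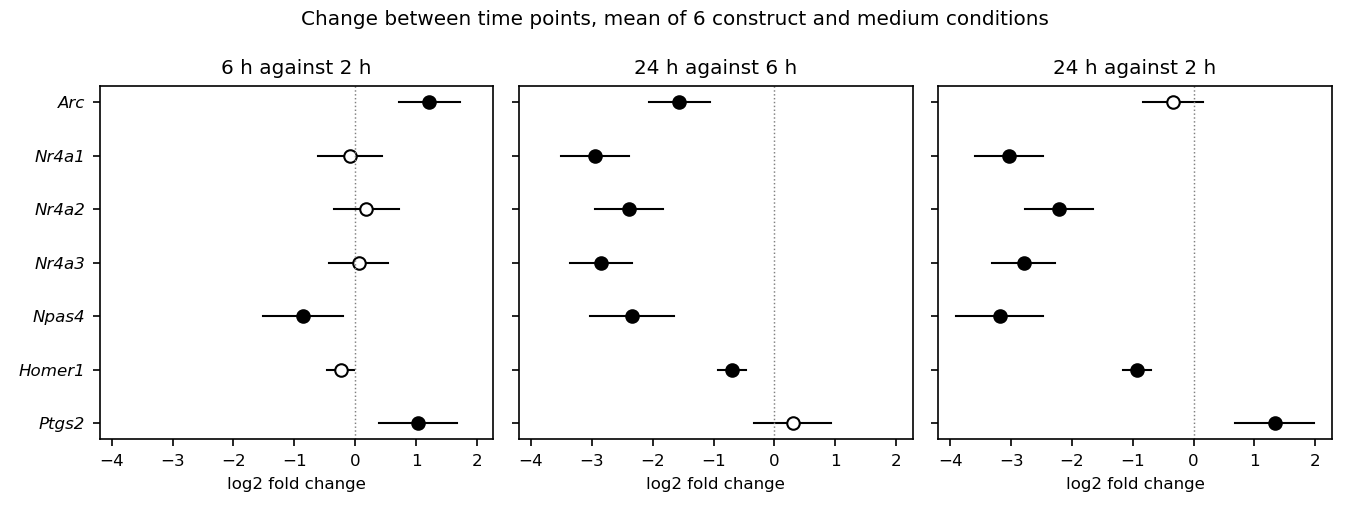
Log2 fold changes of the 7 genes between time points, averaged over 6 conditions; bars are 95% intervals and filled points have an adjusted p under 0.05 (edgeR). Arc and Ptgs2 lie above 0 at 6 h against 2 h (1.22 and 1.04), and 6 genes lie below 0 at 24 h against 6 h.

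In all, 3 of 7 genes were called from 2 to 6 h, beside 49.1% of all genes tested, 6 of 7 from 6 to 24 h beside 50.6%, and 6 of 7 from 2 to 24 h (5 lower, 1 higher) beside 69.5%. With this many genes called, the counts are no result about the 7 genes. The median log2 fold change from 2 to 24 h was -2.21 for the 7 and 0.02 for all genes, whose median absolute change was 0.7. Of 15 further activity-regulated genes 11 were lower and 2 higher at 24 h than at 2 h, with a median of -1.07. The 3 that moved most were Egr4 (-3.86 ± 0.37, adjusted p = 6.59e-12), Egr3 (-2.66 ± 0.35, adjusted p = 1.34e-08) and Fosb (-2.5 ± 0.38, adjusted p = 2.69e-07), all transcription factors of the immediate early class. From 2 to 6 h, 1 was higher, Dusp5 (1.51 ± 0.24, adjusted p = 1.72e-06), a phosphatase that acts on ERK, and 3 were lower, Egr4 and Egr3 (-1.17 ± 0.33 and -1.01 ± 0.33; adjusted p = 0.0036 and 0.00987) and the kinase Plk2 (-0.44 ± 0.13, adjusted p = 0.00601). From 6 to 24 h, 12 were lower and 1 higher, Egr4 (-2.69), Sik1 (-2.07) and Fosb (-1.79) by the most.

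All 7 neuron markers also fell from 2 to 24 h, with a median of -2.27 on the log2 scale, while none of the 4 astrocyte markers was called (median 0.04). The neuron marker sum at 24 h was 500 to 1600 CPM in culture 1, 173 to 451 in culture 2 and 165 to 1100 in culture 3, with medians of 931, 210 and 331 CPM. Culture 1, with the highest median, also had the highest mean log2 difference from 2 to 24 h in each of the 7 genes, from -2.17 for Npas4 to 2.36 for Ptgs2. The part of neuron content in these falls was not tested. From 2 to 6 h the neuron markers had a median of -0.89, with 5 of 7 called lower, over the interval in which Arc and Ptgs2 rose.

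**Figure D3:**
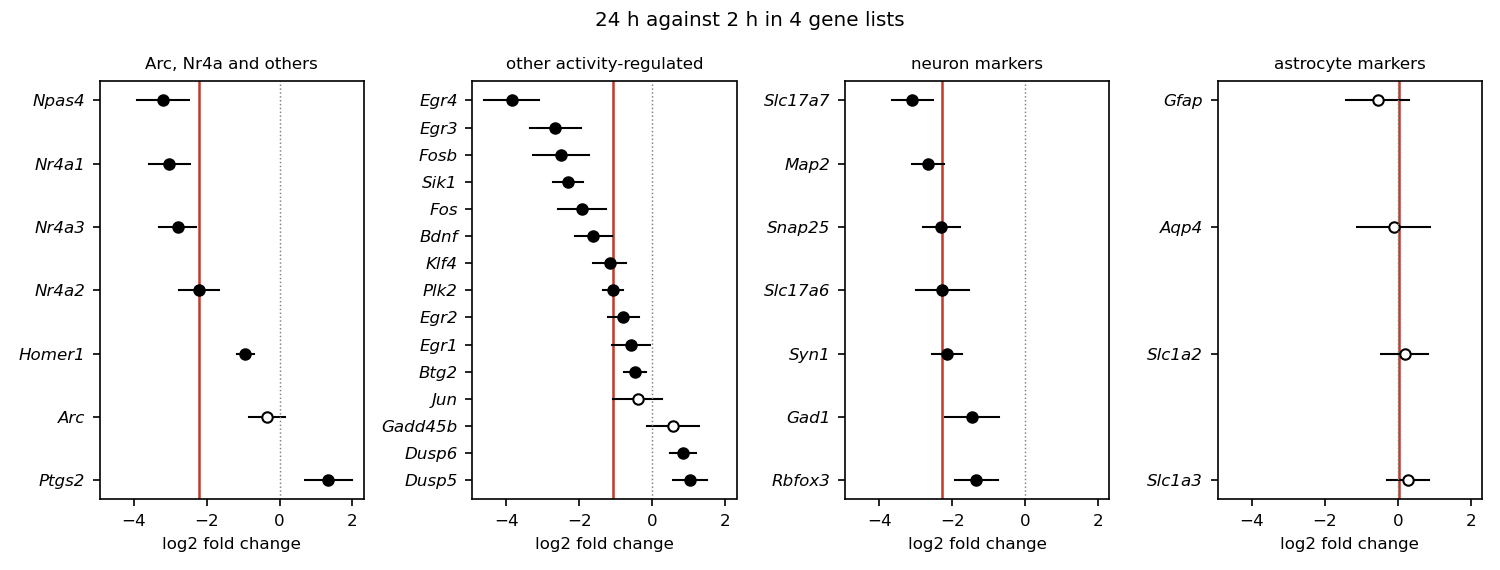
Log2 fold change from 2 to 24 h, gene by gene, for the 7 genes, 15 other activity-regulated genes, 7 neuron markers and 4 astrocyte markers; bars are 95% intervals, filled points have an adjusted p under 0.05 (edgeR) and red lines are list medians. The medians are -2.21, -1.07, -2.27 and 0.04.

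The next comparison, rMBD3 against GFP, asks whether added Mbd3 moved these genes beyond the control virus. Over the 6 conditions 0 of 7 genes were called, beside 11% of all genes tested. At 2 h Arc was higher in rMBD3 cultures in every pair, as were 9.06% of all genes tested, without passing the threshold. At 24 h 6 of the 7 had values below those of GFP on average, again uncalled. The largest difference over the 6 conditions was that of Arc, 0.49 ± 0.25 on the log2 scale (adjusted p = 0.198, 95% interval 0 to 0.99), and the other 6 lay between -0.16 and 0.04. Without the single rMBD3 library named above, Npas4 was called lower (-0.76, edgeR adjusted p = 0.0379), 1 of 7, beside 15.8% of all genes. Of the 15 other activity-regulated genes 2 were higher over the 6 conditions, the transcription factor Egr2 (0.99 ± 0.21, adjusted p = 0.00184) and the growth inhibitor Btg2 (0.66 ± 0.15, adjusted p = 0.00303), with a list median of 0.35 against -0.03 for all genes. Of the astrocyte markers 2 of 4 were higher, the glutamate transporters Slc1a2 (1.36 ± 0.33, adjusted p = 0.00524) and Slc1a3 (0.92 ± 0.29, adjusted p = 0.0323), and of the neuron markers 0 of 7 were called.

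At 2 h Arc had 73.1, 45.6 and 40.4 CPM in rMBD3 cultures 1, 2 and 3 with magnesium and 101, 50.9 and 44.5 CPM without it. GFP cultures had 27, 25.4 and 22.4 CPM with magnesium and 23.5, 27.5 and 35.6 CPM without it. Untransfected cultures had 57.2, 23.7 and 29.8 CPM with magnesium and 21.4, 30.9 and 31.7 CPM without it. All 6 rMBD3 libraries lay above all 6 GFP libraries, upward a property of 1.49% of all genes, and 1 untransfected library, culture 1 with magnesium, lay within the rMBD3 range. The comparison called 0 of 7 of these genes and 0.874% of all genes. For Arc the log2 fold change was 1.14 ± 0.43 (edgeR adjusted p = 0.249, unadjusted 0.0114), higher in 6 of 6 pairs, as were 9.06% of all genes. With a block for each culture at each time point it was 1.07 (adjusted p = 0.0233; 6.03% of all genes called), and with only the 2 h libraries in the fit 1.18 (adjusted p = 0.027; 2.51% of genes called). Within cultures 1, 2 and 3 the mean log2 difference was 1.77, 0.87 and 0.58.

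The 3 Nr4a genes, Npas4 and Ptgs2 also had higher values in 5 of 6 rMBD3 pairs at 2 h, and Homer1 lower values in 5 of 6. Their log2 differences were 0.72 ± 0.45 for Nr4a1 (adjusted p = 0.598), 0.46 ± 0.41 for Nr4a3, 0.38 ± 0.45 for Nr4a2, 0.36 ± 0.56 for Npas4, 0.5 ± 0.55 for Ptgs2 and -0.34 ± 0.2 for Homer1. None passed the threshold. The 95% interval for Nr4a1, from -0.18 to 1.63, still held a 2-fold difference. Among the other activity-regulated genes Btg2 alone was called at 2 h (1.1 ± 0.26, adjusted p = 0.0285), 1 of 15, and the list median was 0.78. For Arc, the adjusted p ranged from 0.0233 to 0.714 over the alternatives tried.

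Astrocyte transcripts were set beside Arc in these early libraries. The astrocyte marker sum at 2 h was 929 to 5450 CPM in rMBD3 cultures (median 1410), 264 to 1610 in GFP cultures (median 485) and 475 to 3810 in untransfected cultures (median 640). The 4 markers had a median log2 difference of 1.38 between rMBD3 and GFP, with 0 of 4 called. The untransfected library within the rMBD3 range of Arc, culture 1 with magnesium, had the sum of 3810 CPM. Culture 1 also had sums of 1970 (untransfected, magnesium-free), 1610 (GFP with magnesium) and 1560 CPM (GFP, magnesium-free). Arc was at 21.4, 27 and 23.5 CPM in these libraries. In rMBD3 cultures 2 and 3 the sums were lower, 929 to 1460 CPM, with Arc at 40.4 to 50.9 CPM. Across the 18 libraries at 2 h, which share cultures, the log2 levels of Arc and of the astrocyte sum had r = 0.693, given as a description. With the same sum r was 0.32 for Ptgs2 and 0.239 for Npas4. It was negative for Nr4a1 (-0.244), Nr4a2 (-0.419), Nr4a3 (-0.349) and Homer1 (-0.477). The part of astrocyte content in the Arc difference was not tested.

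At 6 h, 0 of 7 genes were called between rMBD3 and GFP, beside 0.221% of all genes. The values lay between -0.12 for Npas4 and 0.32 for Arc on the log2 scale, with adjusted p from 0.835 to 0.979. Arc, the gene with the largest difference at 2 h, was higher in 5 of 6 pairs at 6 h, with a 95% interval from -0.53 to 1.17.

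At 24 h, 0 of 7 genes were called with all libraries, beside 0.949% of all genes, and the values of 6 of 7 were negative. The log2 differences were -0.73 for Nr4a1, -0.71 for Npas4 and Nr4a3, -0.57 for Nr4a2, -0.55 for Ptgs2, -0.24 for Homer1 and 0.02 for Arc, with adjusted p from 0.382 to 1.0. Npas4 had 128, 3.15 and 3.79 CPM in rMBD3 cultures 1, 2 and 3 with magnesium and 15.6, 12.1 and 6.33 CPM without it. In GFP cultures it had 83.7, 26.5 and 61.6 CPM with magnesium and 48.8, 12.1 and 10.3 CPM without it. The first of these rMBD3 libraries was the highest of all 18 at this time, and the next 2 were the lowest.

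Ptgs2 was highest in the same library, with 171, 7.47 and 9.06 CPM in rMBD3 cultures with magnesium, 22.2, 4.82 and 3.4 CPM without it, 99.7, 28.2 and 41.2 CPM in GFP cultures with magnesium and 46.6, 9.42 and 16.8 CPM without it. Arc also peaked in the same library, with 118, 6.76 and 21.8 CPM in rMBD3 cultures with magnesium and 18, 11 and 13.8 CPM without it, against 62.5, 27.1 and 35.1 CPM and 23.6, 11.5 and 14 CPM in GFP cultures. Nr4a1 had 127, 11.9 and 40.7 CPM and 42.7, 23.8 and 26.2 CPM in rMBD3 cultures, against 68.4, 46 and 189 CPM and 42, 32.9 and 75.7 CPM in GFP cultures. The groups overlapped in each of these 4 genes, and Nr4a1 was highest in a GFP library, culture 3 with magnesium.

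Without that library, which was left out after its values were seen, 2 of 7 genes were lower in rMBD3 cultures at 24 h, beside 7.26% of all genes called lower. Npas4 was at -2.57 (adjusted p = 0.00277) and Ptgs2 at -2.03 (adjusted p = 0.00885), with Nr4a2 at -1.33 (adjusted p = 0.0519) and Nr4a1 at -1.33 (adjusted p = 0.0556) just outside the threshold. Without all of culture 1, 5 of 7 were lower, beside 6.69% of all genes: Npas4 -1.99 (adjusted p = 0.00215), Ptgs2 -1.89 (adjusted p = 0.00435), Nr4a2 -1.62 (adjusted p = 0.00452), Nr4a3 -1.4 (adjusted p = 0.0083) and Nr4a1 -1.66 (adjusted p = 0.00864). With a block for each culture at each time point Ptgs2 was the 1 gene called (-1.09, adjusted p = 0.0217), beside 7.59% of all genes called lower. Within cultures 1, 2 and 3 the mean log2 difference was -0.52, -1.52 and -2.35 for Npas4, and 0.46, -1.2 and -1.87 for Nr4a1, whose sign thus differed in culture 1.

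The neuron markers were also low in these libraries. Their sum at 24 h was 165 to 875 CPM in rMBD3 cultures (median 179) and 185 to 1090 CPM in GFP cultures (median 560), and the rMBD3 library of culture 1 with magnesium had the 875 CPM. With all libraries 0 of 7 neuron markers were called; without culture 1, 5 of 7 were lower (median -1.49), and without the single library 5 of 7 (median -1.61). The part of neuron content in the lower values of Npas4, Ptgs2 and the Nr4a genes was not tested. Mbd3 itself exceeded its level in GFP cultures by 6.67 on the log2 scale at 2 h, 5.54 at 6 h and 4.65 at 24 h.

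**Figure D4:**
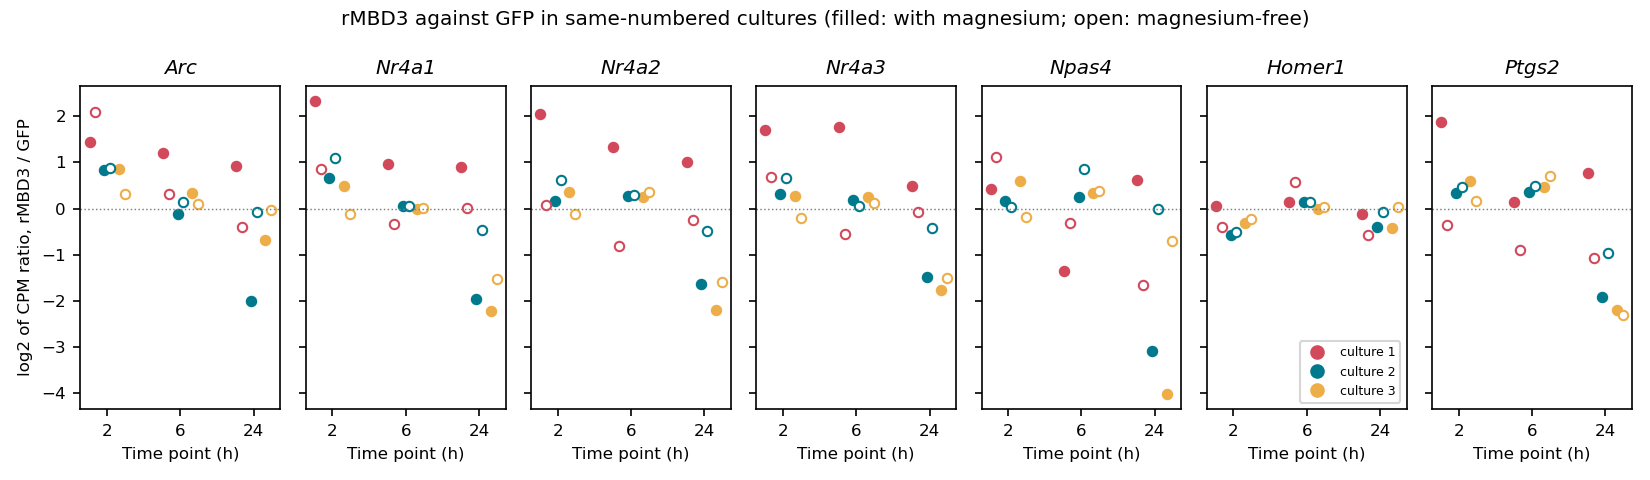
Log2 ratio of CPM, rMBD3 over GFP, in cultures with the same number, by gene and time point; colours are cultures, filled points had magnesium and open points did not. At 2 h the 6 Arc points lie above 0, and at 24 h the filled points of culture 1 lie apart from those of cultures 2 and 3 in Npas4, Ptgs2 and the 3 Nr4a genes.

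Whether the rMBD3 effect differed between the early and the late time point was tested as a difference of differences. This was the rMBD3 effect at 24 h minus that at 2 h. Values were negative for 6 of 7 genes, with a median of -1.06, and 0 of 7 passed, beside 0.0175% of all genes. Without culture 1 Npas4 passed (-2.17, adjusted p = 0.0449), 1 of 7 beside 0.318% of all genes. The effect of added Mbd3 on these genes was therefore not shown to differ between 2 and 24 h in the full set of libraries.

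The control virus was compared with no virus. Between GFP and untransfected cultures over the 6 conditions 0 of 7 genes were called, beside 0.297% of all genes. Log2 differences lay between -0.2 for Arc (95% interval -0.70 to 0.29) and 0.37 for Ptgs2 (95% interval -0.27 to 1.0), with adjusted p from 0.847 to 1.0. The narrowest interval was that of Homer1, -0.26 to 0.19.

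The last comparison, magnesium-free against magnesium medium, asks whether the epileptiform condition changed these genes. Averaged over the 9 combinations of construct and time, 0 of 7 genes were called, beside 0.0% of all genes tested. All 7 values were at or below 0 on the log2 scale, from -0.35 for Ptgs2 to 0.00 for Npas4. Npas4 was nevertheless higher without magnesium in 20 of 27 same-numbered pairs, with mean log2 differences of -0.38, 0.66 and 0.31 in cultures 1, 2 and 3. Over all genes edgeR called 0 at an adjusted p under 0.05, with 1565 at an unadjusted p under 0.05, and DESeq2 called 10. At 2, 6 and 24 h edgeR called 0 genes each, with 132, 355 and 1988 at an unadjusted p under 0.05, and DESeq2 called 1, 0 and 103. Each percentage at the 3 time points is thus 0.0%, and 0 of 7 genes were called at each.

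Npas4 had the largest positive values early. At 2 h its lowest, median and highest CPM was 148, 335 and 621 in the 9 magnesium-free libraries and 192, 253 and 382 in the 9 with magnesium. At 6 h it was 127, 221 and 285 against 85.5, 120 and 357. Values were higher without magnesium in 8 of 9 pairs at each of these times, and at 2 h 4 of 9 magnesium-free libraries lay above all those with magnesium. The log2 differences of 0.56 ± 0.46 at 2 h and 0.46 ± 0.46 at 6 h did not pass (adjusted p = 1.0 at both), and their 95% intervals, -0.37 to 1.49 and -0.47 to 1.39, include 0 and differences above 2-fold. By culture number the mean difference at 2 h was -0.07, 0.54 and 0.97. The other 6 genes lay between -0.14 and 0.04 at 2 h and between -0.07 and 0.36 at 6 h.

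At 24 h all 7 genes had negative log2 differences when averaged over the constructs. This did not hold in untransfected cultures alone, where the values ran from -0.22 for Arc to 0.5 for Nr4a2. There only Arc and Ptgs2 (-0.08) lay below 0. In GFP and in rMBD3 cultures each gene had a negative value, from -0.4 for Homer1 to -2.62 for Ptgs2, both in rMBD3 cultures. The rMBD3 values include the single library named above. In rMBD3 cultures 2 and 3 Npas4 had 12.1 and 6.33 CPM without magnesium against 3.15 and 3.79 CPM with it. Homer1 was also higher without magnesium in both, and Ptgs2 was lower in both (4.82 and 3.4 against 7.47 and 9.06 CPM). Arc and the Nr4a genes were higher without it in culture 2 and lower in culture 3. Arc had 11, 18 and 56.6 CPM in the lowest, median and highest magnesium-free library and 6.76, 28.3 and 118 with magnesium. Ptgs2 had 3.4, 16.8 and 48.3 CPM against 6.48, 28.2 and 171. Both were lower in 7 of 9 pairs, with log2 differences of -1.12 ± 0.35 for Arc (unadjusted p = 0.00281, adjusted p = 0.238) and -1.31 ± 0.45 for Ptgs2 (unadjusted p = 0.00598, adjusted p = 0.269). Npas4 was at -1.02 ± 0.47 (adjusted p = 0.389), and Nr4a2, Nr4a1, Nr4a3 and Homer1 lay between -0.51 and -0.26.

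With a block for each culture at each time point, a fit in which 6.91% of all genes were called at 24 h, Arc (-0.8, adjusted p = 0.0415) and Ptgs2 (-0.99, adjusted p = 0.0167) passed. Without culture 1 their values were -0.42 and -0.59, and without the single rMBD3 library -0.52 and -0.33, where Npas4 was at 0.21 (adjusted p = 1.0). The neuron marker sum at 24 h had medians of 736 CPM with magnesium and 305 CPM without it, and all 7 markers had negative differences (median -0.88, 0 of 7 called); its part was not tested.

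**Figure D5:**
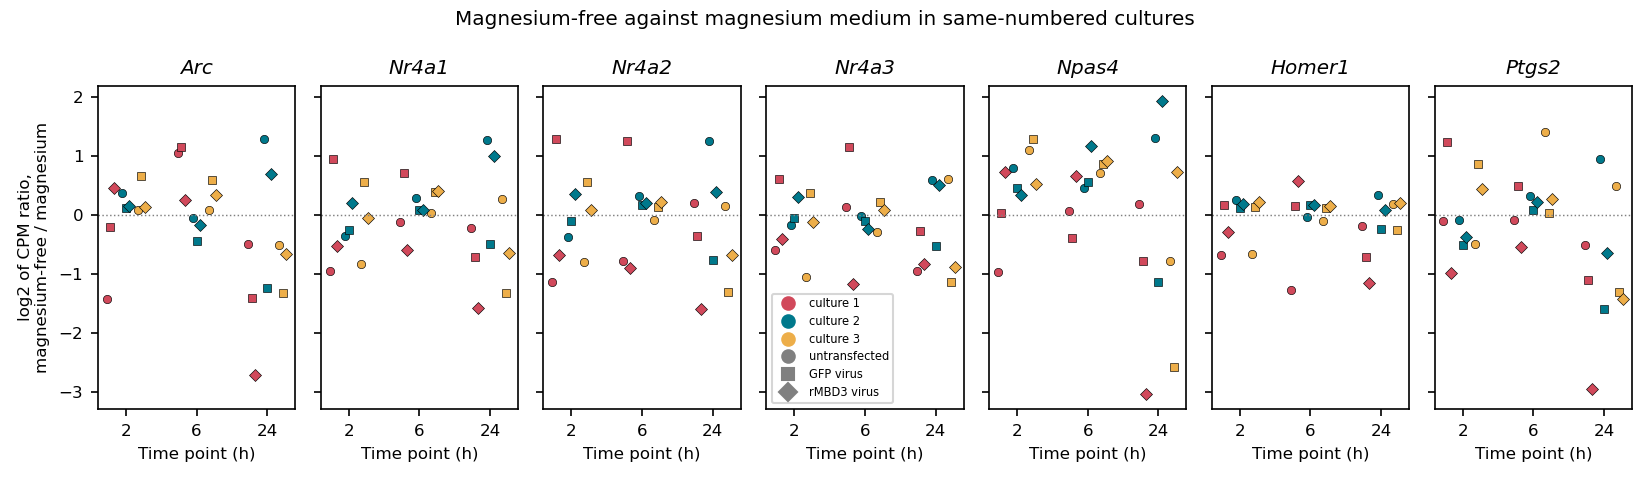
Log2 ratio of CPM, magnesium-free over magnesium, in cultures with the same number, by gene and time point; colours are cultures and shapes are constructs. Of the 9 Npas4 points 8 lie above 0 at 2 h and 8 at 6 h, while at 24 h 7 of 9 lie below 0 for Arc and for Ptgs2, the rMBD3 point of culture 1 lowest in both.

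The medium difference at 24 h minus that at 2 h was -1.59 ± 0.66 for Npas4, -1.31 for Ptgs2 and -1.16 for Arc, and 0 of 7 genes passed (adjusted p = 1.0 for these 3), beside 0.0% of all genes. These 3 values include the rMBD3 library of culture 1 with magnesium at 24 h. Without it the medium differences at 24 h, given above, were smaller in size for all 3 and positive for Npas4. On simulated counts the test of 24 h minus 2 h recovered 15.6% of 2-fold and 85.6% of 4-fold differences. The simulated libraries were independent, with a common dispersion for all genes, so these rates need not hold for the 7 genes. The medium difference in rMBD3 cultures minus that in GFP cultures, at 24 h or over all times, also passed in 0 of 7 genes, beside 0.0% of all genes.

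How far the 7 genes varied together across libraries depended on the pair and on the time point. With the mean of each time point subtracted, the log2 CPM of all 21 pairs of genes correlated positively over the 54 libraries (Pearson r 0.251 to 0.96, median 0.446); these libraries share cultures, depth and neuron content, so r is a description. Within a time point, 2 of the 21 pairs had a negative r at 2 h, 10 at 6 h and 0 at 24 h, over 18 libraries each. The 3 Nr4a receptors formed the closest group, with r = 0.96 for Nr4a1 and Nr4a3, 0.94 for Nr4a1 and Nr4a2, and 0.928 for Nr4a2 and Nr4a3. Npas4 and Ptgs2 had r = 0.787, and Arc and Npas4 0.738. Between these sets the values were lower and differed by time: Npas4 and Nr4a3 had r = 0.251 over all libraries, -0.637 among the 18 at 6 h and 0.694 among the 18 at 24 h. For Arc and Nr4a1 it was 0.377 at 2 h, -0.02 at 6 h and 0.692 at 24 h.

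The relation to the neuron marker sum also differed by time. At 2 h r was negative for 6 of the 7 genes, from -0.457 for Arc to -0.085 for Nr4a2, and 0.537 for Homer1. At 6 h it was -0.685 for Nr4a3, -0.605 for Nr4a1, -0.478 for Nr4a2 and -0.133 for Arc, and 0.406 to 0.558 for Ptgs2, Homer1 and Npas4. At 24 h it was positive for each gene, with r = 0.878 for Ptgs2, 0.876 for Npas4, 0.842 for Arc, 0.811 for Homer1, 0.701 for Nr4a2, 0.621 for Nr4a3 and 0.573 for Nr4a1 over 18 libraries. Among 12198 genes with a mean log2 CPM of at least 1, the most like Arc by the same time-centred r was Gadd45b (0.866), a gene of DNA repair and demethylation, followed by Fosb (0.851). The most like Npas4 was Fosb (0.912), a partner in AP-1 transcription factors, and the most like Nr4a1, apart from the 7 genes, was Sik1 (0.851), a kinase that restrains CREB co-activators.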

How the data were processed

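RNA sequencing counts of 54 libraries were used. The authors counted read pairs per gene with featureCounts 2.0.0, per the file headers, on the reverse strand (setting 2), keeping primary alignments with mapping quality of 3 or more, with Ensembl release 105 gene models on mRatBN7.2, per the file headers; the labels' protocols name rn6 instead. Deposited counts were taken as whole numbers without normalization. Trim Galore, STAR and SAMtools stand in the submitters' processing notes, without versions or order.

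Counts were fitted with edgeR 4.0.16 in R 4.3.3 (TMM factors, filterByExpr with a minimum count of 10 and total of 15, robust quasi-likelihood test, 1 coefficient for each of 18 groups), with Benjamini-Hochberg adjustment over 17172 genes and a threshold of 0.05. Standard errors are the log2 fold change over the square root of F, and levels are CPM with TMM factors. Log2 levels for correlations used a prior count of 2. On simulated counts, rMBD3 against GFP over 6 conditions recovered 90.5% of 2-fold changes, with 4.74% false calls. The medium test at 24 h recovered 50% and made 4.76% false calls. Libraries were simulated as independent, with a common dispersion for all genes and no culture effect. These rates therefore need not hold for the real libraries or for the members. The members and gene lists were chosen with earlier results of these data known. Genes of the other lists were named by identifiers whose chromosome and span (within 1.5 times) matched RefSeq's GRCr8 gene of that symbol, and whose strand matched where RefSeq's promoter table gave 1 strand for it; for the others strand was not checked: 15 of 22 other activity-regulated genes and 4 of 5 astrocyte markers were kept. Of that other list, the 3 with the largest change among those called are named.

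The labels number libraries by cell culture, and same-numbered libraries were taken as pairs. Deviations of same-numbered libraries from their group means correlated by 0.277 on average at the same time point (135 pairs, -0.172 to 0.558) and by 0.151 at different ones. The number stayed out of the main model because no source states a block, and was added as a block in an alternative. Other alternatives were a block per culture and time point, RLE factors, DESeq2 1.42.0, no low-count filter, each culture left out, and fits to 1 time point. Leaving out 1 library was added after seeing the data.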

Additional observations from a re-analysis of the deposited data

How the results depend on the processing

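The 7 genes gave 1057 values over 16 comparisons and 10 alternatives, of which 1031 kept their side of the threshold and, where called, their direction. Another 4 lost their call, 21 gained one, and 1 turned, Ptgs2 from 6 to 24 h, at -0.67 without culture 1 and up to 0.53 without another culture; the cause was not tested. Some counts of called genes moved. For rMBD3 against GFP at 2 h the count was 1 with the replicate block per time point, beside 6.03% of all genes. It was also 1 with only that time point's libraries, beside 2.51%. At 24 h the count was 1 with the block per time point, beside 7.59% of all genes called lower. It was 2 without the single library chosen after seeing the data, beside 7.26% called lower. Leaving out that library also gave 1 over the 6 conditions, beside 15.8% of all genes. For the medium at 24 h the block per time point gave 2, beside 6.91% of all genes. Leaving out each culture in turn gave 0 to 5 genes for rMBD3 against GFP at 24 h and 0 to 1 for the difference of the rMBD3 effect. The 5 and the 1 came without culture 1, beside 6.69% of all genes called lower and 0.318% called. From 2 to 6 h it gave 1 to 4. In the main model 49.1% of all genes were called there, so that count is no result about the 7 genes. The replicate block changed 2 calls, Homer1 from 2 to 6 h (-0.25) and Arc from 2 to 24 h (-0.49), and no other. The biological coefficient of variation, 39.7% in the model without a block, was 31.7% with the block, 26.8% with the block per time point and 24.4% without culture 1, so 3 libraries per group could miss differences of 2-fold.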
